A study of Homo sapiens with 4 samples.

Results

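Peaks of the protein PML over coding exons were described in MDA-MB-231, an established cell line from a human triple-negative breast cancer. They lay away from the nearest transcription start site (TSS) of the deposited annotation. The members were all peaks of the deposited annotated table whose annotation began with exon and whose distance to the nearest TSS was over 1000 bp in either direction. There were 3683 of them among 68937 peaks, or 5.34% of the list, and among 5140 exon peaks, or 71.7%. The other 1457 exon peaks lay within 1000 bp of a TSS.

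PML was immunoprecipitated from cross-linked chromatin and the bound DNA was sequenced in 2 PML ChIP libraries, with 2 input libraries from the same unmodified cells as the control for peak calling. Per the labels, the duplicates were merged, and 1 peak list resulted. No value below therefore has a replicate error and no test between groups of peaks was made. Medians are given with quartiles, and shares with exact Clopper-Pearson 95% intervals that cover counting error only.

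PML is the organising protein of PML nuclear bodies, nuclear structures that recruit many chromatin and repair proteins and change in number and composition in senescence and stress. ChIP-seq with a PML antibody recovers the DNA near which the protein lies, whether or not it touches the DNA itself. Exons are the parts of a gene kept in the mature RNA. The first usually lies beside the promoter, internal exons are usually short, and the last is often the longest and holds the end of the coding sequence. The table gave untranslated ends, transcript ends and noncoding transcripts classes of their own, and all exon rows named a coding transcript, so that the members are peaks over coding exons.

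A few members reached over a RefSeq promoter although their listed distance from a TSS was beyond the 1000 bp limit. These are the only members for which bases can be shown. Of the 3683 members, 25 held a whole RefSeq promoter window, the stretch from 250 bases before to 50 bases after an annotated gene start, and 13 held a window of a protein-coding gene. The windows below, 1 from each exon class, belong to peaks over the first exon of PARP12, an internal exon of LRFN4, the last exon of TMEM102 and the only exon of CENPB. The TMEM102 peak held the window of FGF11, the gene next to it. For PARP12 the RefSeq start is not the TSS from which the listed distance of 1062 bp was measured. That RefSeq start lies within 1000 bp of the peak's centre, so PARP12 is a member only by the deposited annotation. Capitals mark GC boxes, the letters GGGCGG or their reverse complement CCGCCC. All are from RefSeq, build GRCh38.p14, and are written 5′ to 3′ on the strand of the gene.
PARP12, chr7:140062902-140063201, minus strand: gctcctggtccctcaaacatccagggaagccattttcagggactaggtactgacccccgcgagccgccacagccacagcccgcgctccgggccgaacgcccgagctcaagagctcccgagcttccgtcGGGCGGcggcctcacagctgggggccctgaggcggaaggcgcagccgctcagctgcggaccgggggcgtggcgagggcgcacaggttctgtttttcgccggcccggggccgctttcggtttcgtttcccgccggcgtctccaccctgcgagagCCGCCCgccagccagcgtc
LRFN4, chr11:66856814-66857113, plus strand: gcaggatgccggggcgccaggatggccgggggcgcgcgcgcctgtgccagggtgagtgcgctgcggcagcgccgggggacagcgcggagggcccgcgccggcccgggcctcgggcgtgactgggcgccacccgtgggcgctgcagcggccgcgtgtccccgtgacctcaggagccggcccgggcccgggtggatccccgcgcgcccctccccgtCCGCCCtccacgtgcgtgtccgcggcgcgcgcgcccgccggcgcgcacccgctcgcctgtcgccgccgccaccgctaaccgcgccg
FGF11, chr17:7438048-7438347, plus strand: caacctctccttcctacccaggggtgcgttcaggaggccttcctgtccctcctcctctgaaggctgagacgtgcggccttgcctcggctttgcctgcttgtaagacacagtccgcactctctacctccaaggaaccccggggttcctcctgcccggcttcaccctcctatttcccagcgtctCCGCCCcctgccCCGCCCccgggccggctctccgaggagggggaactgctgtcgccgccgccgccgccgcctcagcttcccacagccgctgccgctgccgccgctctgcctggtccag
CENPB, chr20:3786691-3786990, minus strand: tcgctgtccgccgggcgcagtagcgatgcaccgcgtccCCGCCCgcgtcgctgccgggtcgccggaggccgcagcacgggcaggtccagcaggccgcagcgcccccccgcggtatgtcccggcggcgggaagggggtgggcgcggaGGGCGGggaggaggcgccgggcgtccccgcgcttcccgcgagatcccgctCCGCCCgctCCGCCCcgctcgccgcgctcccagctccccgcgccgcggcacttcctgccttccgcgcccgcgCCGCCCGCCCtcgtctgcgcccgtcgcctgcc

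The PARP12 window had a GC content of 71.3% with 35 CpG sites, and the LRFN4 window 83.3% with 55. The FGF11 window had 69.0% with 23, and the CENPB window 82.0% with 55. GC boxes numbered 2, 1, 2 and 6 in the same order, and those of CENPB include a pair that overlap. The peaks that hold them had scores of 251 over PARP12, 170 over LRFN4, 282 over TMEM102 and 137 over CENPB, where the score is the authors' own whole number per peak. All 4 scores lay above 81, the 90th percentile of the whole list. PARP12, TMEM102 and CENPB were among the 4 highest members of their exon class, so these scores say nothing of the other members.

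Across the windows held by members, the median GC content was 67.7% (n = 31 windows), against 68.0% for windows overlapped by any peak (n = 14124) and 58.7% for all windows (n = 35116). A GC box stood in 58.1% of the windows held by members, against 74.7% of those overlapped by any peak and 45.0% of all. An ETS-type motif, CCGGAAG on either strand, was found in 9.68%, against 17.8% and 10.3%. An AP-1-type motif, TGANTCA on either strand, was found in 6.45%, against 4.09% and 7.71%. The letters ACTACA, the core of a motif known for RONIN (THAP11), were found on either strand in 0 of the 31 windows, against 7.09% and 8.46%. With 31 windows a single match moves a share visibly, and the match or its absence says nothing of a factor's binding. Only 48 members (1.30%) overlapped any promoter window, so the windows describe few of the exon peaks.

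Exon peaks away from promoters had ordinary scores. Their median score was 34 (quartiles 26 and 48, range 13 to 1192), against 34 (25 and 50) over all other peaks. In all, 864 members (23.5%, 95% interval 22.1 to 24.9) had a high score, taken here as 49 or more, the 75th percentile of the list, against 25.5% of all peaks. A score of 81 or more, the 90th percentile, was held by 217 members (5.89%, 5.15 to 6.70), against 10.1% of all peaks. The middle of the members was thus like that of the list, and the top was thinner. The median width was 436 bp (quartiles 327 and 667, up to 10573), against 435 bp over all other peaks. The median distance to the nearest TSS was 9555 bp, against 16316.5 bp over all other peaks.

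Against the other parts of genes, exon peaks lay a little above introns and gene ends and well below exon peaks beside promoters. Peaks in second or later introns, over 1000 bp from a TSS and with no repeat named (n = 12975), had a median score of 31. Their median width was 412 bp, and 17.1% of them had a high score. Peaks in 3′ untranslated regions or at transcript ends, also over 1000 bp from a TSS (n = 2094), had 31.5 and 421.5 bp, with 20.5% at a high score. Exon peaks within 1000 bp of a TSS had a median score of 55 and a median width of 741 bp, with 55.3% at a high score. Another peak lay within 5000 bp for 71.2% of members, against 69.8% of the intron peaks, 76.8% of the gene-end peaks and 54.0% of all other peaks. Within members, scores and widths moved together only in part (Spearman rho 0.42 over 3683 peaks of 1 list, against 0.49 over all 68937).

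The members fell mostly on internal exons. By the exon number and total in the annotation, 2613 lay on an internal exon (70.9%, 69.5 to 72.4), 912 on the last (24.8%, 23.4 to 26.2), 68 on the first (1.85%, 1.44 to 2.33) and 90 on the only exon of a transcript (2.44%, 1.97 to 3.0). The median transcript had 15 exons for internal members and 4 exons for last and first members. Among the exon peaks inside the 1000 bp limit, 1042 of 1457 were on a first exon, so that the distance limit bears on the count of first exons among the members.

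Last exons held more members than an equal share for every exon would give. Among the 2965 members in transcripts of 5 or more exons, 448 lay on the last exon (15.1%, 13.8 to 16.4), where an equal share for every exon of the same transcripts would give 240.7 (8.12%), a ratio of 1.86. The penultimate exon held 242 (8.16%) and the second exon 231 (7.79%), both close to the equal share. The first held 31 (1.05%). With all 3593 members in transcripts of 2 or more exons, the last exon held 912 against 470.8, a ratio of 1.94. The equal share counts first exons as open to members, although most first-exon peaks lay inside the 1000 bp limit and were left out. The other exons then share what remains, so both ratios run high by construction, most in transcripts of few exons. The size of that part was not tested. Exon lengths are not in the files, and longer coding stretches offer more room for a peak's centre. Untranslated ends have a class of their own, so the whole length of a last exon is not the measure. The part of coding length in these shares was not tested.

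**Figure D1:**
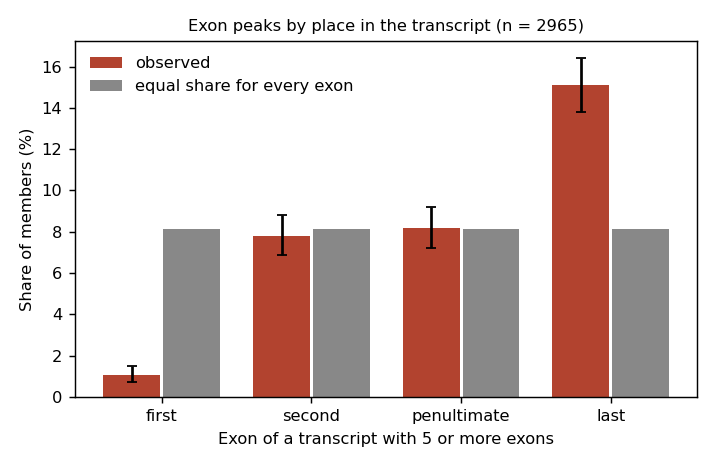
Share of members (%) on the first, second, penultimate and last exon of transcripts with 5 or more exons (n = 2965 members), with exact 95% intervals that cover counting error only. Red bars are the members and grey bars the share if every exon of the same transcripts held equally many. The grey bars count first exons as open to members, although the 1000 bp limit leaves out most first-exon peaks. The last exon stands at 15.1% beside 8.12%, the second and penultimate exons are near the grey bars, and the first is at 1.05%.

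Exon classes differed in score and width. First-exon members had a median score of 46 (quartiles 31 and 76) and a median width of 706 bp, and single-exon members 46 (31 and 67.5) and 697 bp. Last-exon members had 36 (26 and 53) and 486 bp, and internal members 33 (25 and 47) and 415 bp. A score of 49 or more was held by 44.1% of first-exon members (32.1 to 56.7), 38.9% of single-exon members (28.8 to 49.7), 28.4% of last-exon members (25.5 to 31.4) and 20.7% of internal members (19.1 to 22.3). The high values of the 2 smallest classes rested in part on the clustered protocadherin genes described below. Without them, first-exon members (n = 55) had a median score of 42 and a width of 614 bp, and single-exon members (n = 53) had 39 and 620 bp. Both classes then still had higher medians of score and width than last and internal exons. Of the 68 first-exon members, 53 lay between 1000 and 2000 bp from the TSS, with a median score of 48 and a width of 796 bp. The 15 from 2000 to 5000 bp had 36 and 524 bp, against 36 and 495 bp for last-exon members at the same distance (n = 239).

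**Figure D2:**
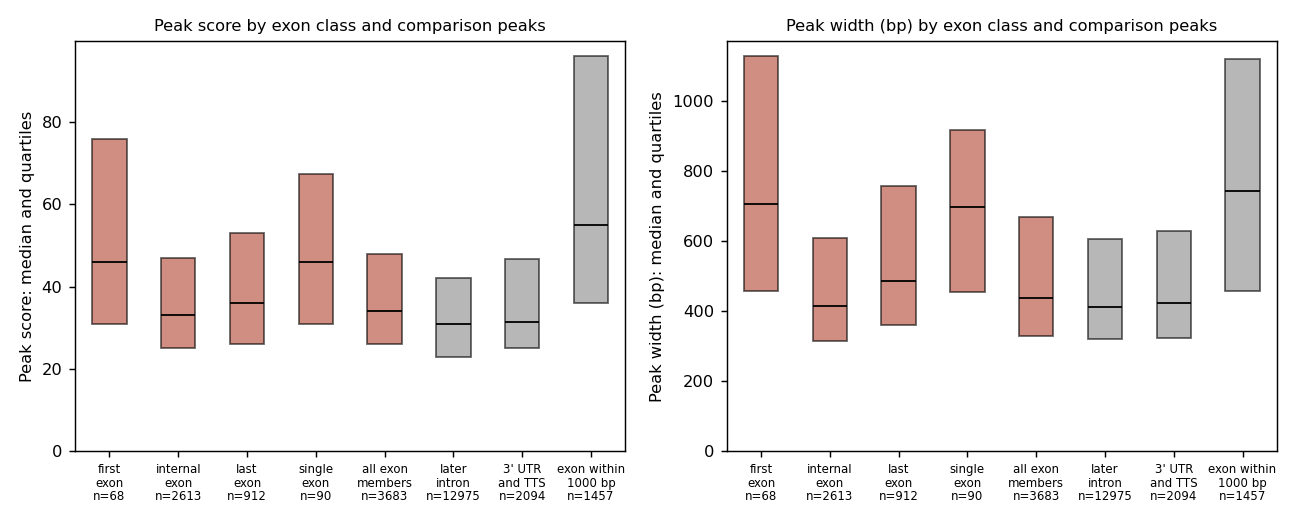
Peak score (left) and peak width in bp (right) by exon class of the members, for all members, and for 3 sets of comparison peaks in grey. The later-intron and gene-end sets hold only peaks over 1000 bp from a TSS. Boxes run between the quartiles and lines mark medians. First-exon and single-exon members have medians of 46, internal members 33, later introns 31 and exon peaks within 1000 bp of a TSS 55.

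The gap in median score between last and internal exons varied with the size of the transcript. In transcripts of 2 to 4 exons both had a median score of 36, with a median width of 527 bp for last (n = 464) and 466 bp for internal (n = 127). In transcripts of 5 to 9 exons last exons had 36 (n = 226) and internal exons 34 (n = 550). In transcripts of 10 to 19 exons the order was the other way, with 31 for last (n = 153) and 33 for internal (n = 990). In transcripts of 20 or more exons last exons had 35 (n = 69) and internal exons 31 (n = 946). These gaps are small beside the quartile range of any of these groups.

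The median score of exon members was lower farther from the TSS, while that of later-intron peaks was the same in every distance bin. The share with a score of 49 or more was lower far from the TSS in both, at 34.8%, 25.7%, 23.8%, 20.3% and 18.1% of exon members in the 5 bins from the nearest to the farthest, against 22.3%, 18.2%, 18.2%, 17.6% and 14.7% of later-intron peaks. From 1000 to 2000 bp the median score was 40 over exon members (n = 408), against 31 over later-intron peaks and 33 over gene ends. It was 36 from 2000 to 5000 bp (n = 731), against 31 and 32. From 5000 to 10000 bp and from 10000 to 50000 bp it was 33 (n = 757 and 1372), against 31 over introns in both and 33 and 31 over gene ends. Beyond 50000 bp it was 31 (n = 415), against 31 and 29. The mix of exon classes also changed with distance. The nearest bin held 53 first-exon members (median score 48) and 60 single-exon members (46.5), classes that were fewer farther out and absent beyond 10000 bp. Internal members alone had medians of 36, 34, 33, 32 and 31 in the 5 bins. The part of the class mix was not tested. Across individual members the relation was weak, with a Spearman rho of −0.10 between score and distance.

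**Figure D3:**
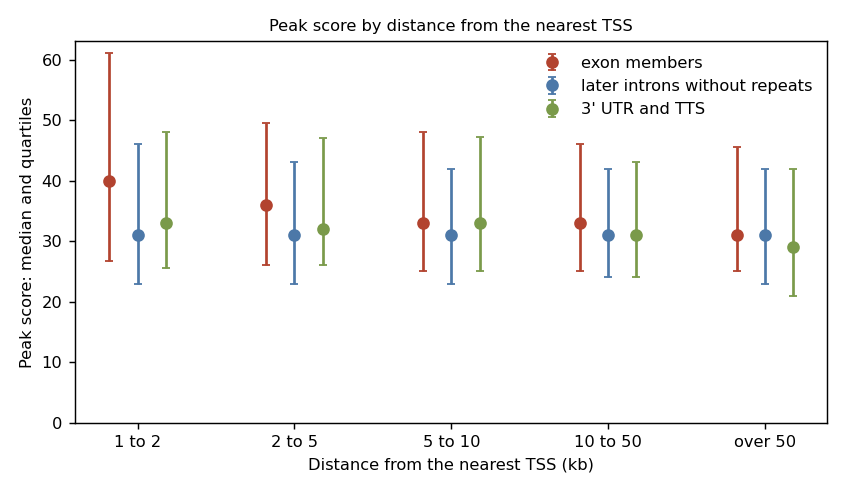
Median peak score (points) with quartiles (bars) by distance from the nearest TSS in kb, for exon members, later introns without repeats, and 3′ UTR and transcript-end peaks. Exon members lie at 40 in the nearest bin and 31 in the farthest, and later introns at 31 in all 5 bins. Internal exon members alone, not drawn, had 36 in the nearest bin and 31 in the farthest.

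At the 1000 bp limit itself, the 3 exon peaks nearest to it on each side were as follows. Just outside it were peaks over ZBTB48 (1002 bp, score 26), SOX10 (1004 bp, score 13) and ACTL7B (1004 bp, score 31). Just inside, and so not members, were METTL26 (999 bp, score 36), ZXDA (992 bp, score 28) and MAB21L1 (989 bp, score 21).

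The highest-scoring member lay over MTOR, the kinase at the centre of nutrient signalling that the series title names. It covered chr1:11247626-11248096 over exon 7 of 58, 14690 bp from the TSS, with a score of 1192 and rank 8 of the whole list. The next member had 438. The MTOR peak was 470 bp wide, close to the median of all members, while the other 11 of the 12 highest members were 1156 to 6057 bp wide. The remaining 4 peaks in MTOR were in introns.

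Wide peaks over last and internal exons filled most of the places after it. LRRC24, a leucine-rich repeat protein, had a peak of 6057 bp and score 438 over exon 5 of 5. FLT4, a receptor for the lymphatic growth factor VEGF-C, had a peak of 3830 bp and score 336 over exon 17 of 30. PRR7, a proline-rich synaptic membrane protein, had a score of 290 over exon 2 of 3, and TCHH, the hair follicle protein trichohyalin, had 289 over exon 3 of 3. TMEM102 followed with 282 over exon 2 of 2, and ZFTA, known as a fusion partner in ependymoma and given in the table under its older symbol, had 262 over exon 5 of 5.

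The rest of the 12 highest members scored close together. EHD1, an ATPase of endocytic recycling, had 258 over exon 6 of 6, and PARP12, a mono-ADP-ribosyltransferase, 251 over exon 1 of 12. ZIC5, a zinc finger transcription factor, had 249 over exon 1 of 2, GPAA1, a subunit of the enzyme that attaches GPI anchors, 249 over exon 4 of 12, and ATN1, the corepressor atrophin-1, 248 over exon 6 of 10. By class they were 5 last, 5 internal and 2 first exons. Among the 100 highest members, all with scores of 104 or more, 47 were internal, 40 last, 9 first and 4 single, and 58 were over 1000 bp wide, against 409 of all 3683 members.

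The exon named for a wide peak is 1 exon, and how many exons such a peak spans was not counted. PLEC, the cytoskeletal linker plectin, had a peak of 10573 bp with a score of 144 centred on exon 32 of 32, and PLXNB3, a semaphorin receptor of the plexin family, 7140 bp with a score of 158 centred on exon 3 of 36. Among first-exon and single-exon peaks, FOXO1, a forkhead factor downstream of insulin signalling, had 2010 bp and a score of 151 over exon 1 of 3, and IRF2BPL 2914 bp and 122 over its only exon. CENPB, which binds a motif of centromeric satellite DNA, had 3844 bp and 137 over its only exon.

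The ends of a pair of chromosomes held a high share of high scores, although most high members lay elsewhere. Beyond 140 Mb of chromosome 8 lay 67 members with a median score of 55, of which 61.2% had a score of 49 or more, and beyond 170 Mb of chromosome 5 lay 72 with 46 and 45.8%. Of the 12 highest members, 2 were in each of these ends (LRRC24 and GPAA1, FLT4 and PRR7). Together these ends held 139 of all 3683 members, 74 of the 864 with a score of 49 or more and 15 of the 100 highest. The ends of chromosomes 8 and 5 held 1430 and 1488 peaks of the list in all. The share of high scores among all peaks there was not counted, so a trait of exon members cannot be told from one of these regions. Without chromosomes 5 and 8 the share of members with a score of 49 or more was 21.3%. Among whole chromosomes, 19 had the highest share of exon members among its peaks, with 335 of 2587 (12.9%), and 18 the lowest of those with any, with 13 of 597 (2.18%). Chromosome 1 held the most members, 486.

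The clustered protocadherins, cell adhesion genes arranged in tandem in the alpha, beta and gamma clusters of chromosome 5, were covered almost gene by gene. Each variable exon of these clusters is long and encodes the extracellular part of a separate neuronal recognition protein, from a promoter of its own. Of the 53 RefSeq protein-coding genes of the clusters, 50 had a member (94.3%, 84.3 to 98.8), against 13.2% of all 20056 protein-coding genes (2651). The 3 others were PCDHB1, with no exon peak, and PCDHGA9 and PCDHGC3, whose exon peaks lay within 1000 bp of the TSS with scores of 22 and 41. From the first to the last member the region ran over chr5:140787483-141491666 (704 kb) and held 71 peaks, of which 58 were exon peaks and 51 of these members. Only 2 were in introns, 1 was intergenic and 3 were classed as promoter.

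The protocadherin members lay at similar distances from the start of their genes, within bounds that the member rule sets in part. Exon peaks within 1000 bp of a TSS are not members, so they are not among these distances. For the 48 whose nearest TSS was that of their own gene, the median distance downstream of it was 1958 bp (quartiles 1792.5 and 2109.75, range 1343 to 3434). Over all 51 protocadherin members the median score was 60 (43.5 and 80.5), and 30 of them (58.8%) had a score of 49 or more, against 23.5% of all members. The median width was 752 bp.

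All 15 genes of the alpha cluster had a member, with a median score of 73 over 16 peaks. PCDHA6 had the highest at 124, and PCDHA1 and PCDHA2 had 101 and 102. The lowest in the cluster were 3 peaks of the C-type genes PCDHAC1 (48 and 21) and PCDHAC2 (39), together with PCDHA3 (45) and PCDHA12 (47). Both C-type genes instead had a high exon peak close to their TSS, with a score of 220 for PCDHAC1 at 251 bp and 130 for PCDHAC2 at 311 bp.

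In the beta cluster 15 of 16 genes had a member, with a median score of 61. PCDHB7 had the highest of any clustered protocadherin at 166, followed by PCDHB6 at 136, PCDHB8 at 109 and PCDHB4 at 103, and the lowest were PCDHB11 at 27 and PCDHB15 at 28. The gamma cluster had members in 20 of 22 genes and the lowest median, 49.5. Its highest were PCDHGA10 at 109 and PCDHGB5 at 89, and its lowest PCDHGA1 and PCDHGA6 at 19 each. The ranges of the 3 clusters overlapped widely.

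Peaks near the start were rare in these genes. Of the 53, 10 had a peak within 1000 bp of a TSS (18.9%, 9.44 to 32.0), 2 in the alpha cluster, 0 in the beta and 8 in the gamma, against 54.4% of all protein-coding genes. By annotation 37 of the members were on the only exon of a transcript, 13 on a first exon and 1 on a last exon. Some alpha and gamma genes are annotated with both 1-exon and 4-exon transcripts, so that exon 1 of 1 and exon 1 of 4 can be the same stretch. The genes are close paralogs, and the labels and headers do not say how reads that match several of them were placed.

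**Figure D4:**
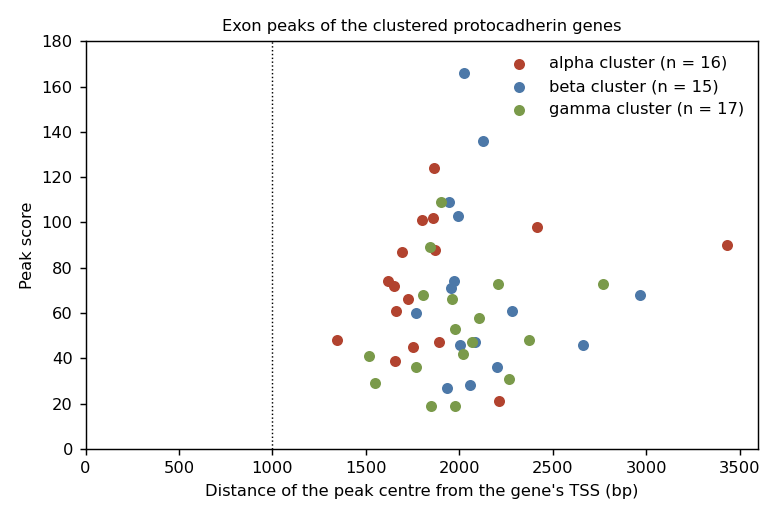
Peak score against the distance of the peak centre from the TSS (bp) for the 48 clustered protocadherin members nearest to their own gene's TSS, by cluster. The dotted line marks the 1000 bp limit, inside which exon peaks are not members and are not drawn. The points gather near 2000 bp (median 1958 bp) with scores of 19 to 166.

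C2H2 zinc finger genes, a large family of DNA-binding factors whose finger arrays mostly lie in the last coding exon, had 111 members in 90 of 608 genes (14.8%, 12.1 to 17.9), close to the 13.2% of all protein-coding genes. Most of these members, 67 of 111 (60.4%, 50.6 to 69.5), were on the last exon, against 24.8% of all members. Those on a last exon had a median score of 42 and a median width of 610 bp, and the 39 on internal exons 31 and 407 bp. ZNF219 had the highest with 154 over exon 3 of 5, followed by ZNF7 with 127 and ZNF696 with 115, both on their last exon.

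Other cadherin genes had 31 members in 16 of 43 genes (37.2%, 23.0 to 53.3), with a median score of 36. The gene shares of this paragraph stand beside 13.2% of all protein-coding genes, and the median scores beside 34 over all members. The number of exons per gene was not taken into account. PCDH8, a protocadherin outside the clusters, had 139 over exon 1 of 3 at 1267 bp, and FAT2, an atypical cadherin, 68. Mucins, the glycoproteins of mucus, had 11 members in 6 of 18 genes (33.3%). They were led by MUC3A with 154 and MUC12 with 144, both over exon 2 of 12. Collagens had 21 members in 13 of 44 genes (29.5%), with 92 and 86 for the highest, both in COL22A1, and 55 in COL18A1. Kinesin and dynein heavy chain genes, the microtubule motors, had 38 members in 17 of 52 genes (32.7%) with a median score of 27.5. Their highest were KIF26B with 91 and 64 and KIF3B with 64. Solute carriers, the membrane transporters, had 91 members in 72 of 386 genes (18.7%), with a median score of 33, led by SLC75A1 (MFSD10 in the table) with 120, SLC43A2 with 109 and SLC9A3 with 97. Olfactory receptors had 3 members in 392 genes (0.765%), and MAGE genes 4 in 35 (11.4%). Named by the nearest TSS instead of the transcript under the peak, other cadherins had 20 members, mucins 7 and collagens 12.

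Genes of the mTOR pathway had 14 members in 12 of 29 genes (41.4%, 23.5 to 61.1), against 13.2% of all protein-coding genes. The gene shares of this paragraph also take no account of the number of exons per gene. The 14 members had a median score of 26, against 34 over all members. A high score was held by 14.3% of them, against 23.5% of all members. Named by the nearest TSS instead of the transcript under the peak, the pathway had 7 members. SESN2, a stress-induced inhibitor of the pathway, had 60 over its last exon, exon 10 of 10, and RPTOR, the scaffold of mTOR complex 1, had 45 over exon 28 of 30. SEC13, part of a complex that senses amino acids for the pathway, had 42 and 26, TSC2 and TSC1, its main brakes, 26 and 24, and the autophagy kinase ULK1 26 and 17. Of 89 ribosomal protein genes, only RPLP0, a protein of the ribosomal stalk, had a member (1.12%), with 36 over exon 5 of 8. Of 13 genes for components of PML bodies, HIPK2, a kinase, had 26 and DAXX, a histone chaperone, 21. By the nearest TSS, ribosomal protein genes had 6 members and PML body genes 4. Among senescence genes, the cell cycle inhibitors CDKN2B and CDKN1A had 48 and 31.

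Some genes carried many exon peaks. The 3674 members with a gene name lay in 2658 genes, 1995 of them with 1 member and 663 with 2 or more (1679 members). HMCN2, an extracellular matrix protein, had 10, on exons 20 to 90 of 98 over 101 kb, with a median score of 45 and a highest of 64 over exon 75. CACNA1C, the pore of a cardiac and neuronal calcium channel, had 8 with a highest of 44, and CDH23, a cadherin of the inner ear's hair cells, 8 with a highest of 60. SPTBN5, a spectrin, had 7 with a highest of 58 over exon 7 of 68.

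SETD1B, a histone methyltransferase that acts at active promoters, had 7 members within 18.9 kb of a gene of 42.5 kb. They lay on exons 5, 6, 8, 10, 11, 12 and 15 of 16, with scores of 42, 31, 17, 36, 61, 25 and 68. The gene had 4 peaks in introns, while CACNA1C, a gene of 727 kb, had 93 and CDH23, of 419 kb, 78. The length of introns was not taken into account. In SETD1B and SPTBN5 (5 in introns) the exon peaks were therefore the larger share, and in HMCN2 (27 in introns), CACNA1C and CDH23 the smaller.

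**Figure D5:**
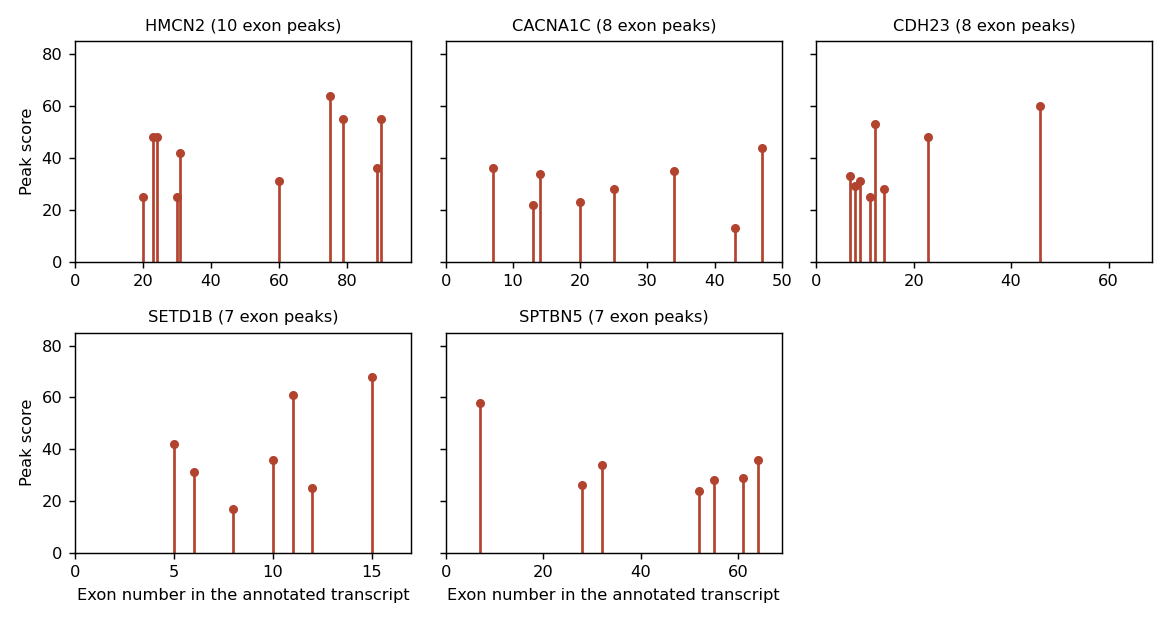
Peak score against exon number in the annotated transcript for 5 genes with 7 or more exon members, 1 stem per member. The exon numbers of CDH23 come from transcripts of 68, 25 and 23 exons, so their order on the axis is not the order along the gene. In CACNA1C the peak on exon 43 is numbered in a transcript of 48 exons and the others in 1 of 49. HMCN2 shows its highest score (64) on exon 75, and SETD1B its highest (61 and 68) on exons 11 and 15 of 16.

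Genes with an exon member had a peak at their start in a higher share than the rest. A peak within 1000 bp of a TSS named 68.7% of the protein-coding genes with a member (1821 of 2651, 66.9 to 70.5), against 52.2% of those without (9094 of 17405, 51.5 to 53.0). By exon class the share was 71.0% for internal, 69.5% for last, 62.5% for first and 37.2% for single exons (n = 86 genes). Without the clustered protocadherins, the share for single exons was 54.0% (27 of 50, 39.3 to 68.2). The median length of genes was 26731 bp with a member and 23724 bp without one. The nearest TSS was that of the member's own gene for 2169 members (58.9%), while for 557 (15.1%) it belonged to a noncoding gene or pseudogene.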

How the data were processed

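PML ChIP and input libraries (2 each) were sequenced from MDA-MB-231 cells. Per the submitters' processing notes, HOMER 4.11.1 and the hg38 build were used, with MACS2 2.1.1.20160309, Picard 2.0.1, BWA 0.7.12 and Trimmomatic 0.36, for which settings and thresholds are not given in the sources used here. What was deposited is 1 merged list, with positions and distances in bp and a whole-number score per peak given by the authors on a scale the file headers do not state; it was used only to rank and describe peaks. The table does not give the depth of any sample. Widths are end minus start.

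Exon number, total and transcript were read from the annotation. Transcripts were matched to RefSeq genes of GRCh38.p14 for 3665 of 3683 members (99.5%), and 9 had no gene name. Family counts used 14 lists by symbol. The members and lists were chosen with earlier results of these data known. Named members were the 12 highest, the 4 highest of each exon class, the genes with most members, the 3 highest of each family and the 3 nearest to the limit on each side; further clustered protocadherins and pathway genes were named after their values were seen. Some genes that these rules name are not reported here. Counting steps were tested on simulated data. Python 3.11.15, numpy 2.4.6, scipy 1.17.1 and pandas 2.3.3 were used. No genome was used here, so bases under peaks were not read. Place along the gene was left out, because the strand was known for too few members.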

Additional observations from a re-analysis of the deposited data

How the results depend on the processing

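The shares of exon classes follow the distance limit. With members over 500 bp from a TSS, first, internal, last and single exons held 5.40%, 67.1%, 23.0% and 4.51%, 25.4% scored 49 or more and the median width was 449 bp. Over 2000 bp, first, internal and single exons held 0.458%, 74.4% and 0.916%, with 22.0% at such scores and 424 bp. Over 10000 bp, the 4 shares were 0%, 78.8%, 21.2% and 0%, with 19.8% and 409 bp. With peaks at or above the median score of the list, they were 2.60%, 67.4%, 26.6% and 3.40%, and by construction 45.9% scored 49 or more, with a median score of 48 and a median width of 544 bp. With the highest-scoring peak of each transcript, internal, last and single exons held 65.4%, 29.1% and 3.18%, with 28.2% at 49 or more and 447.5 bp. With members nearest to their own gene's TSS, first, internal and single exons held 3.09%, 68.4% and 3.92%, and the width was 448 bp. Counting 1-exon transcripts as first gave 4.29%, and as last 27.2%. With 81 in place of 49 as the score, the share was 5.89%. In alternatives chosen after seeing the data, single exons held 1.46% without the clustered protocadherins and 1.48% without chromosomes 5 and 8, where 21.3% scored 49 or more. The cause was not tested where the construction does not give it. Leaving out chromosome 1 moved none of 15 values beyond their intervals. Leaving out peaks that name a repeat removed no member and so tests nothing. Naming families by the nearest gene moved 6 of 14 counts by over 1.5 times, to 7 for the mTOR pathway, 7 for mucins, 12 for collagens, 20 for other cadherins, 6 for ribosomal proteins and 4 for PML bodies. No paired analysis was possible because the table holds 1 merged list with no replicates. The merged list also sets the limits: no replicate error, unknown depth, an unstated score scale and no enrichment over input.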
